A study of Mus musculus with 384 samples.

Results

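The cells described here are hormone-sensing and secretory luminal cells of the adult mouse mammary gland, 95 cells of 331 kept single cells from a plate of 384 wells. They were chosen by their own expression values. Among the kept wells that the labels title as single luminal cells, a gene was called on at 100 CPM or more, where CPM is a gene's count scaled to a library total of 1000000 gene reads. A cell was hormone-sensing if 2 or more of Prlr, Cited1, Areg, Esr1, Pgr and Ly6a were on and fewer than 2 of Csn3, Kit, Elf5, Lalba, Btn1a1 and Plet1, and secretory if the reverse held. This gave 42 hormone-sensing cells (38.9% of the kept luminal cells, exact Clopper-Pearson 95% interval 29.7 to 48.7%) and 53 secretory cells (49.1%, 39.3 to 58.9%). Another 12 cells had both sets on and 1 had neither, and these 13 were left out of the comparison. Wells were kept from 50000 gene reads and 1500 detected genes upward, provided that no more than 20% of the reads were mitochondrial.

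Single cells were sorted by flow cytometry and sequenced with a modified Smart-seq2 protocol, which amplifies whole messenger RNAs from 1 cell per well. The adult cells came from mammary glands of mice labelled Rosa-tdTomato, and live cells without CD45, CD31 or CD140a were gated as luminal (CD24+CD29Lo) or basal (CD24+CD29Hi). The third gate, CD49f Hi/Lgr5 Hi, took skin cells of female day 14 embryos labelled Lgr5-EGFP-IRES-CreER, in which EGFP reports the Wnt pathway receptor gene Lgr5. The age, cycle stage and number of the adult mice are not given in the labels, and both sides of the comparison came from the same luminal gate.

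The luminal layer of the mammary duct holds cells of different kinds. Hormone-sensing cells carry the receptors for estrogen, progesterone and prolactin and pass the signal to their neighbours with secreted factors such as amphiregulin, Wnt4 and RANK ligand. Secretory cells, also called luminal progenitors or alveolar precursors, carry the receptor tyrosine kinase Kit and the transcription factor Elf5 and make milk proteins in pregnancy and lactation.

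The labels tie no cell to an animal, so the luminal gate is 1 sample and no test was made between its cells. Levels of a side are reads summed over its cells and scaled to CPM, and folds are ratios of these with exact conditional Poisson 95% intervals. Log2 ratios are hormone-sensing over secretory with 1 CPM added to each side. Reads were amplified by PCR without molecular identifiers, so intervals and limits cover counting error only. Intervals for a share of cells count each cell of the gate as a separate draw. They do not cover a spread between animals, as cells are not replicates. The hormone-sensing cells had a median of 813100 reads (94431 to 1595858) and 4700.5 genes with a read, and the secretory cells 482621 reads (63571 to 1483748) and 2940 genes. After thinning each cell to 50000 reads the medians were 3337 and 2128 genes. The secretory cells had a median of 13.7 gene reads per spike-in read (1.77 to 37.6), against 33.3 (2.67 to 120) in the hormone-sensing cells. With 0 of 42 or 0 of 53 cells on, the share of cells may be up to 7.14% or 5.66%. The 4 wells without a cell held 34 to 563 gene reads, and 2 of their 841 reads lay on the 12 rule genes.

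The luminal identity of both sides was checked with keratins and with markers of other cells. Krt18 was on in 42 of 42 hormone-sensing and 52 of 53 secretory cells, Krt8 in 42 and 51, and the adhesion molecule Epcam in 42 and 52. Of the 14 basal and myoepithelial markers, 3 reached 20 CPM on either side. The 14 together summed to 79.4 CPM in hormone-sensing and 149.5 CPM in secretory cells. Of the 14, 2 or more were on in 4 hormone-sensing and 3 secretory cells, which stayed in the comparison. The highest sum of the 14 in a single cell was 2024 CPM in hormone-sensing and 6964 CPM in secretory cells. The defining basal genes were low on both sides, with Krt5 at 3.07 and 4.01 CPM, Trp63 at 0.200 and 3.56 CPM, Krt14 at 6.28 and 23.96 CPM and Acta2 at 16.2 and 46.8 CPM. A single well held 74.8% of the secretory Krt14 reads, and a single well 72.2% of the secretory Acta2 reads. The immune, endothelial, adipocyte, erythroid, Schwann cell and epidermal lists each summed to under 40 CPM on each side, and Ptprc, Kdr, Adipoq and Krt1 had no read on either. Among fibroblast genes, Col1a1 and Col3a1 were at 0.0668 and 0.0334 CPM in hormone-sensing and 0.441 and 4.31 CPM in secretory cells, while Dcn was at 87.6 CPM there, on in 8 cells, and at 0.305 CPM in secretory cells. The part of these markers in the differences below was not tested.

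The 12 rule genes are given as the values that chose the cells. Prlr, the prolactin receptor, had lowest, median and highest levels of 1095, 4719 and 12655 CPM in hormone-sensing cells and 0, 11.6 and 1578 CPM in secretory cells. It was on in all 42 hormone-sensing cells and also in 15 of the 53 secretory cells, so the sides overlapped. Cited1, a transcriptional co-activator of estrogen receptor, ran through 6.05, 1076 and 5109 CPM in hormone-sensing cells, with 41 on, and 0, 0 and 126.2 CPM in secretory cells, with 1 on. The EGF family ligand Areg ran through 0, 987 and 12002 CPM and 0, 0 and 307 CPM, with 32 and 1 cells on. Both genes were high in nearly all or most hormone-sensing cells and near 0 in most secretory cells, with overlap at the low end. Esr1, the estrogen receptor, was on in 35 and 0 cells, with a median of 386 CPM among the former. The surface protein gene Ly6a was on in 34 and 3 cells, and the progesterone receptor Pgr in 17 and 1, with a median of 43.5 CPM and a highest cell of 564 CPM in hormone-sensing cells. Pgr was the hormone-sensing rule gene on in the fewest hormone-sensing cells.

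On the secretory side, Csn3, which encodes kappa-casein, ran through 0, 9705 and 47295 CPM in secretory cells and 0, 0 and 195 CPM in hormone-sensing cells. It was on in 51 secretory cells and 1 hormone-sensing cell. Kit ran through 0, 383 and 2176 CPM in secretory cells and reached at most 2.07 CPM in hormone-sensing cells. It was on in 43 and 0 cells, the milk fat globule protein gene Btn1a1 in 44 and 0, Lalba, which encodes alpha-lactalbumin, in 40 and 0, and Elf5 in 20 and 0. Elf5 had no read in any hormone-sensing cell. Plet1, a surface protein of progenitor cells, was on in 51 secretory cells but also in 19 hormone-sensing cells. Its levels ran through 8.07, 5179 and 15802 CPM in the former and 0, 55.3 and 905 CPM in the latter.

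Of the 42 hormone-sensing cells, 5 had 3 of their own genes on, 8 had 4, 20 had 5 and 9 had all 6, and none had only 2. Of the 53 secretory cells, 2 had 2 of their own genes on, 8 had 3, 9 had 4, 19 had 5 and 15 had all 6. One gene of the other set was on in 20 of the 42 hormone-sensing and 21 of the 53 secretory cells, 1 gene short of being left out, and none in the other 22 and 32. Just outside, 5 cells with 2 hormone-sensing genes on had 4 or 5 secretory genes on and counted as both. So did 2 cells with 2 secretory genes on, which had 5 and 6 hormone-sensing genes on. The cell with neither had 1 gene of each set on. Asking for 3 or more own genes and none of the other set leaves 22 hormone-sensing and 31 secretory cells.

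**Figure D1:**
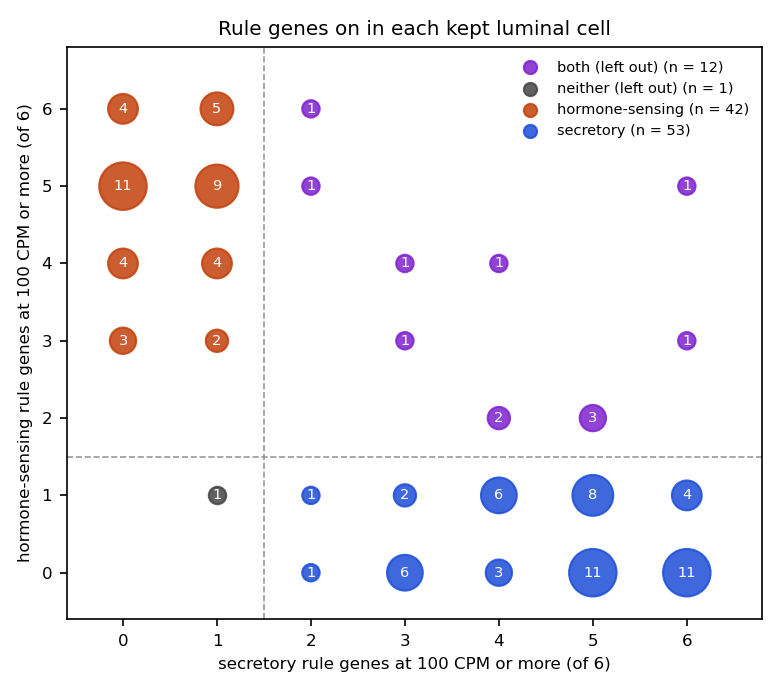
Number of hormone-sensing rule genes on (vertical axis, of 6) against secretory rule genes on (horizontal axis, of 6) in each kept luminal cell, with the number of cells written in each circle and the dashed lines at the rule's limits. The 42 hormone-sensing cells have 3 to 6 of their own genes on, and the 12 cells with both sets on spread between the 2 groups.

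Outside the 12 rule genes, 7693 genes reached 20 CPM on either side. Of these, 2399 (31.2%) were at least 2-fold higher in hormone-sensing cells and 1463 (19%) at least 2-fold higher in secretory cells. The median log2 ratio of all 7693 was 0.32, so list medians below are to be read against that shift, and list counts against the shares of 31.2% and 19%. A list whose share is near those is not set apart by its count. Hormone-sensing cells took 62.1% of these 2-fold genes as scaled to gene reads, 48.6% with median-of-ratios scaling, 48.2% with TMM scaling and 91.4% with spike-in reads as the total. With that last total, 12 named genes that were 2-fold higher in secretory cells came to lie under 2-fold, and 22 named genes under 2-fold came to lie 2-fold higher in hormone-sensing cells. The log2 ratios of those described below are given with them as spike-in values. At 10-fold the counts were 579 and 416. On in at least 50% of one side and under 10% of the other were 52 genes for hormone-sensing and 26 for secretory cells. Within plate rows A to H the 2-fold counts were 2873 and 1788, and within rows I to P 2614 and 1760. Since the same cells gave the rule and these genes, the values that follow describe the sides and test nothing.

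The largest ratios toward hormone-sensing cells included the secreted proteins Gpx3 and Fgg and the membrane proteins Abcc8, Piezo2 and Slc7a2. Gpx3, which encodes a secreted glutathione peroxidase, lies at chr11:54902453-54910377 in GRCm38. It had lowest, median and highest levels of 0, 508 and 6512 CPM in hormone-sensing cells and gave 1 read in all secretory cells together. It was on in 33 of 42 hormone-sensing cells (78.6%, 63.2 to 89.7%), and the ratio was 30703-fold (5510.2 to 1.21e+06), an interval as wide as a single read allows. Fgg, the fibrinogen gamma chain, was on in 23 hormone-sensing cells and 0 secretory cells, at 855 against 0.577 CPM, 1482-fold (926 to 2545). Abcc8, the sulfonylurea receptor of potassium channels, had no read in any secretory cell. Its level in hormone-sensing cells, where 21 cells were on, was at least 1730.5-fold higher. The mechanically gated channel gene Piezo2 was on in 21 and 0 cells, and the cationic amino acid transporter gene Slc7a2 in 34 and 0.

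Ptn separated the sides with no overlap. It encodes pleiotrophin, a heparin-binding growth factor, and ran through 933, 5050.0 and 9051 CPM in hormone-sensing cells and 0, 0 and 815 CPM in secretory cells. Every hormone-sensing cell was above every secretory cell for this gene, and the ratio was 154-fold (144 to 164). Wfdc2, a secreted protein of the whey acidic protein family, was on in 38 and 2 cells and was 161-fold (143 to 182) higher. Wnt4, the Wnt ligand that progesterone induces in this tissue, ran through 0, 112.8 and 959 CPM in hormone-sensing cells and was on in 22 of 42 (52.4%, 36.4 to 68%) against 0 of 53. Its ratio was 433-fold (270.1 to 743). The tetraspanin gene Tspan1 (32 and 1 cells on), the collagen gene Col8a1 (22 and 0), Tmem56 (39 and 2) and Fam25c (31 and 0) complete the 12 genes with the largest ratios among those on in at least 50% of the hormone-sensing cells.

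By the share of cells on, S100a6 and Slc12a2 stood beside Ptn, each on in all 42 hormone-sensing cells. S100a6, a calcium-binding protein gene, was also on in 8 secretory cells, and Slc12a2, the sodium-potassium-chloride cotransporter, in 9. Slc12a2 was at 5830.1 against 122.4 CPM, 47.6-fold (46.1 to 49.2). AW112010 was on in 38 and 1 cells, and Stc2, which encodes the secreted glycoprotein stanniocalcin, in 37 and 1. Some of these ratios moved with single wells: without the highest well of each side the log2 ratio of AW112010 went from 5.66 to 8.36, of Tspan1 from 8.24 to 9.58, of Stc2 from 6.14 to 7.43 and of Tmem56 from 7.68 to 8.67.

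The largest ratios toward secretory cells included the secreted proteins Spp1, Lcn2, Trf and Cst3. Spp1, which encodes osteopontin, a phosphoprotein of milk and bone, had lowest, median and highest levels of 3.20, 15996 and 57114 CPM in secretory cells and 0, 2.28 and 225 CPM in hormone-sensing cells. It was on in 51 of 53 and 1 of 42 cells, and the ratio was 2765-fold (2443 to 3143). Lcn2, a lipocalin that binds bacterial iron carriers, ran through 882, 6154 and 25355 CPM in secretory cells. All 53 secretory cells lay above the highest hormone-sensing cell, at 177 CPM, and the ratio was 625-fold (565 to 694). Trf, the iron carrier transferrin, ran through 221, 2465 and 9893 CPM against 0, 0 and 119.3 CPM and was on in 53 and 1 cells, 599-fold (508 to 713). Its lowest secretory cell was above its highest hormone-sensing cell.

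Mfge8, a milk fat globule protein that binds dying cells, and Cp, the copper protein ceruloplasmin, were also on in all 53 secretory cells. Mfge8 was at 4366 against 28.99 CPM, 151-fold (141 to 161), and Cp at 2301 against 78.7 CPM, 29.2-fold (28.1 to 30.5). Igfbp5, which binds insulin-like growth factors, ran through 2925, 10926 and 29927 CPM in secretory cells and 0, 0.544 and 1219.8 CPM in hormone-sensing cells, 159-fold (152 to 166). For Igfbp5 and Mfge8 too the ranges of the sides did not overlap, although for Mfge8 the lowest secretory cell, at 313 CPM, was close to the highest hormone-sensing cell, at 303 CPM. The protease inhibitor cystatin C (Cst3) was on in 51 and 4 cells, 392-fold (360.4 to 427) higher. The proton pump subunit Atp6v1b1 was on in 47 and 0 cells, and the chloride channel family gene Clic6 in 40 and 0.

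The hyaluronan receptor Cd44 was on in 33 of 53 secretory cells (62.3%, 47.9 to 75.2%) and 0 of 42 hormone-sensing cells, 3417-fold (1569.6 to 9312). The carbonyl reductase gene Cbr2 was on in 35 and 0, the mucin gene Muc15 in 31 and 0, the phospholipase gene Plb1 in 27 and 0, and Lbp, which binds lipopolysaccharide, in 27 and 0. Plb1 had no read in any hormone-sensing cell, so its secretory level was at least 3305-fold higher. Muc15 gave 2 reads and Lbp 1 read in hormone-sensing cells, and their ratios were 6737-fold (1865 to 55634) and 9339.6-fold (1676 to 368932). Without the highest well of each side the log2 ratio went from -7.29 to -9.80 for Igfbp5, from -8.25 to -9.55 for Cbr2, from -4.85 to -5.73 for Cp, from -7.19 to -7.82 for Mfge8 and from -7.68 to -8.28 for Atp6v1b1. Fgg, Slc7a2, Spp1, Trf, Muc15, Plb1 and Cp overlap another gene in the annotation, and the strand setting of the counting is not given in the sources used here.

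**Figure D2:**
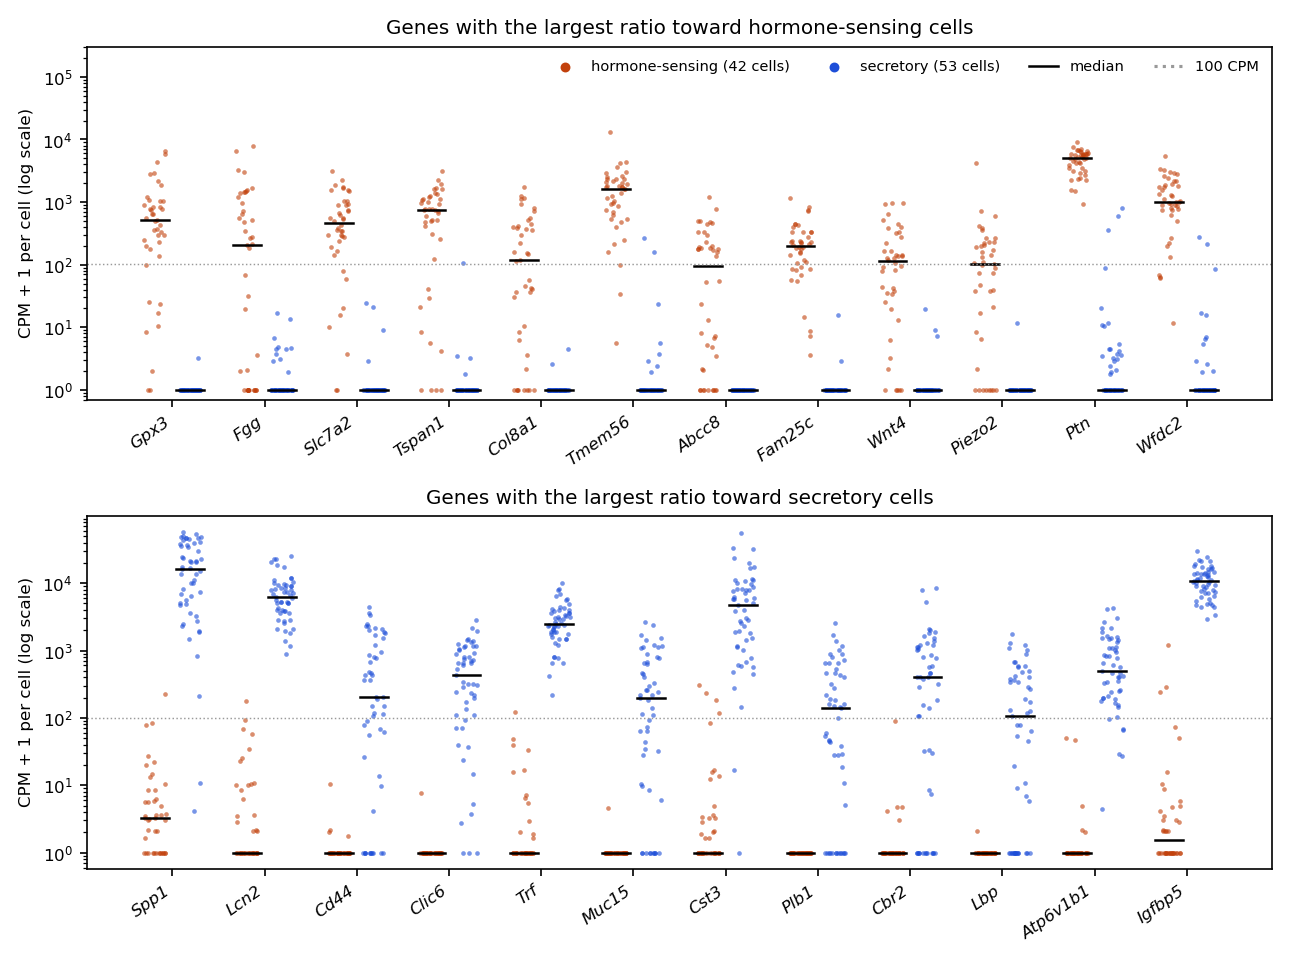
Level of each of the 12 genes with the largest ratio on each side (CPM + 1 per cell, log scale), with 1 point per cell, horizontal bars at the medians and the dotted line at 100 CPM. For Ptn every one of the 42 hormone-sensing cells lies above all 53 secretory cells, and for Lcn2, Trf and Igfbp5 the reverse holds.

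The stretch before the start of these genes is shown because the genes of a side were high in the same cells. The sequences are the 250 bases before the first listed RefSeq start of each gene, 5′ to 3′ on the gene's strand, in build GRCm38.p6. For Gpx3 this stretch lies inside the span of the gene given above, which begins before that RefSeq start. Capitals mark AGGAAG or its reverse complement CTTCCT, a core to which factors of the ETS family, among them Elf5 and Ehf, can bind. Spp1, Lcn2 and Mfge8 are genes of the secretory side, Gpx3 and Wfdc2 of the hormone-sensing side. All of these were picked by hand and hold the core, so they do not represent the shares given below.
Spp1 chr5:104434861-104435110 (plus strand): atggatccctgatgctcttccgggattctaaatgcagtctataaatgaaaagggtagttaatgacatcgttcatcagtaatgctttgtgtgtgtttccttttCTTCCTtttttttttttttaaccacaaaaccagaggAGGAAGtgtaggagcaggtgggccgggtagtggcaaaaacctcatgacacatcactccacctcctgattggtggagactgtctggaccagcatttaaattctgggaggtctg
Lcn2 chr2:32387740-32387989 (minus strand): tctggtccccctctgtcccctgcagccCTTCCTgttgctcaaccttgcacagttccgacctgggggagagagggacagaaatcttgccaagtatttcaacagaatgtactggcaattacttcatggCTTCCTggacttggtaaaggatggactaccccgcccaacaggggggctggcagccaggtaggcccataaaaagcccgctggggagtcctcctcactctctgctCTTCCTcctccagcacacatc
Mfge8 chr7:79149061-79149310 (minus strand): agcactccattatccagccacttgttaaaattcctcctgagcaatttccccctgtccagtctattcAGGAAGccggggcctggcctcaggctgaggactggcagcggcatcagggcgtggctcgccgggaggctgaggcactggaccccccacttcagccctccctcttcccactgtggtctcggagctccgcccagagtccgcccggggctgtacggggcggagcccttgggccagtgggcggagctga
Gpx3 chr11:54902604-54902853 (plus strand): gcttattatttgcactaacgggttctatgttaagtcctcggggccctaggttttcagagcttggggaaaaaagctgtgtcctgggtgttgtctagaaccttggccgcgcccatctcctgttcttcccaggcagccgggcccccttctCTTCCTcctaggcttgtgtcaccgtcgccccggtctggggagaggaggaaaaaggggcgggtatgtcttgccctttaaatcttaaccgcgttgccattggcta
Wfdc2 chr2:164562465-164562714 (plus strand): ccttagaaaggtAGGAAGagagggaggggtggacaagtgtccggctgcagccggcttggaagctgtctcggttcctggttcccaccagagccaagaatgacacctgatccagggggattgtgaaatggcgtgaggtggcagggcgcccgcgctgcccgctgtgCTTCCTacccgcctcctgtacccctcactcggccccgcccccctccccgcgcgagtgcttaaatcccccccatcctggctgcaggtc
The Lcn2 stretch holds 3 matches, those of Spp1 and Wfdc2 hold 2 each, and those of Mfge8 and Gpx3 hold 1 each. Of the 14 leading secretory genes, by ratio or share, 10 had a listed promoter and 7 of these (70%) held the motif on either strand. Of the 16 leading hormone-sensing genes, 11 had one and 4 (36.4%) held it. Each gene counted with its first listed promoter, and among all 27025 genes with one of this length the share was 29.2%. The STAT motif TTCNNNGAA, which reads the same on both strands, was in 0 of 10 and 0 of 11 (7.18% of all these genes). The forkhead motif TGTTTAC was in 1 and 0 (3.09%), and the nuclear receptor site AGGTCA in 1 and 2 (13.8%), the last pair on either strand. No motif contains another. These are matches of letters in a short window, not binding sites.

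The leading genes were then counted in each cell. Hormone-sensing cells had 5 to 12 of the 12 hormone-sensing leading genes on (median 8) and 0 to 3 of the 12 secretory ones. Secretory cells had 6 to 12 secretory leading genes on (median 10) and 0 to 3 hormone-sensing ones. The 12 cells left out for having both sets on were not alike. Of these, 6 had no hormone-sensing leading gene on and 8 to 11 secretory ones, and in those 6 the hormone-sensing rule genes that were on were Prlr in 5, Ly6a in 5, Areg in 2 and Cited1 in 1, with Esr1 and Pgr in 0. Another 2 had 10 or more hormone-sensing leading genes on and 2 to 4 secretory ones. The other 4 had 3 to 7 hormone-sensing and 7 to 10 secretory leading genes on. The cells with both sets on had a median of 594544 reads (287363 to 1301852), and 10 of the 12 lay in plate rows A to H, which held 54 kept luminal cells, as did rows I to P. No doublet caller was run.

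**Figure D3:**
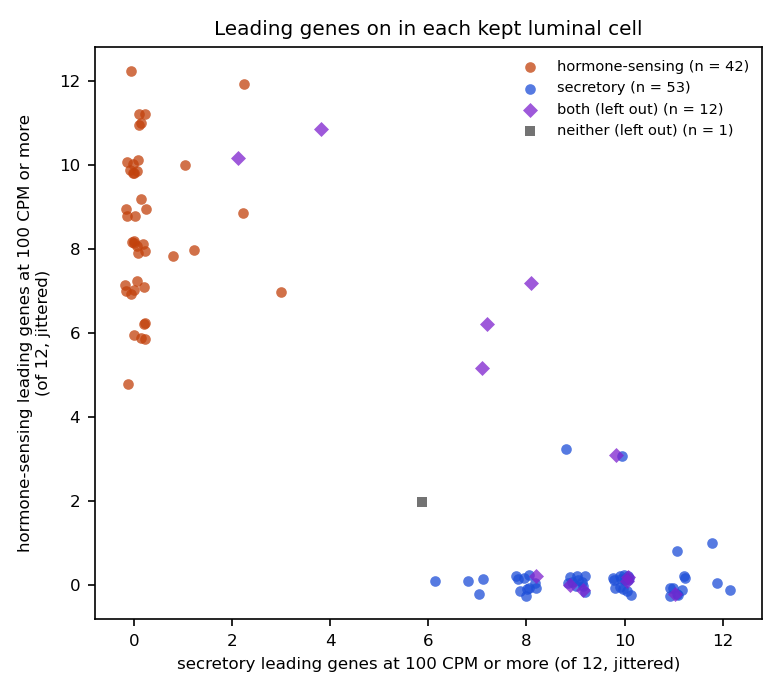
Hormone-sensing leading genes on (vertical axis, of 12) against secretory leading genes on (horizontal axis, of 12) in each kept luminal cell, with a small random offset so that points do not hide each other. The 95 compared cells lie along the axes, and of the 12 cells with both rule sets on, 6 lie among the secretory cells and 2 near the hormone-sensing ones.

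Genes known from each kind of cell, without the rule genes, were followed as lists. Of 20 hormone-sensing genes, 16 reached 20 CPM, and 13 of these were at least 2-fold higher in hormone-sensing cells and 3 in secretory cells. The list holds the leading genes Gpx3, Wnt4, Wfdc2, Stc2, S100a6 and Slc12a2, so its count and median partly repeat them. The median log2 ratio of the list was 5.37 against 0.32 for all genes. Without each gene's highest well on each side this median was 6.04. Foxa1, the factor that opens chromatin for estrogen receptor, ran through 0, 210.5 and 2086 CPM in hormone-sensing cells and 0, 0 and 419.6 CPM in secretory cells. Foxa1 was on in 25 of 42 (59.5%, 43.3 to 74.4%) and 2 of 53 cells, 35.8-fold (31.6 to 40.7), and its log2 ratio went from 5.01 to 5.63 without the highest well of each side. The 3 members on the other side were the aldolase gene Aldoc (45.5 against 656 CPM), the complement regulator Cd55 (19.4 against 190.2 CPM) and Pdk4 (1.77 against 34.7 CPM), a kinase of pyruvate metabolism with 80.7% of its secretory reads in 1 well. Without the highest wells the Cd55 log2 ratio went from -3.23 to -4.14 and that of Pdk4 from -3.69 to -2.87. Prom1, a surface protein used to sort these cells and named here after its values were seen, was on in 28 and 1 cells.

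Of 20 secretory progenitor genes, 18 were measured, 17 were at least 2-fold higher in secretory cells and none in hormone-sensing cells. The median log2 ratio was -5.50, or -6.30 without each gene's highest wells. The list holds the leading genes Spp1, Lcn2, Trf, Atp6v1b1, Mfge8 and Cp, so its count and median partly repeat them. Cd14, the co-receptor for lipopolysaccharide, ran through 0, 1249 and 6929 CPM in secretory cells and 0, 0.336 and 1242 CPM in hormone-sensing cells. Cd14 was on in 46 of 53 (86.8%, 74.7 to 94.5%) and 7 of 42 cells, so the sides overlapped, and the ratio was 27.6-fold (26.5 to 28.8). Aldh1a3, an aldehyde dehydrogenase that marks luminal progenitors, was on in only 8 of 53 secretory cells (15.1%, 6.75 to 27.6%) and 0 of 42. It had 46.4% of its secretory reads in 1 well and a log2 ratio of -6.12, or -5.37 without the highest well of each side. Its 2 reads in hormone-sensing cells gave a ratio of 1099-fold (304 to 9077). Tm4sf1 was on in 48 secretory and 26 hormone-sensing cells. Sox9, a transcription factor of progenitors, was on in 30 hormone-sensing and 26 secretory cells, at 317 and 249.6 CPM, with a spike-in value of 1.54.

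The caseins Csn1s1 and Csn2 were on in a minority of the secretory cells, whereas 52 of the 53 had 2 or more genes of the milk list on. All 9 measured members of the milk protein and milk fat globule list were at least 2-fold higher in secretory cells. The median log2 ratio was -7.19, or -7.82 without each gene's highest wells. Among these members are Mfge8 and Muc15, described above as leading genes. Csn1s1, an alpha casein, was on in 15 of 53 secretory cells (28.3%, 16.8 to 42.3%) with a highest cell of 32301 CPM and a median of 0, and Csn2, beta casein, in 6 (11.3%, 4.27 to 23.03%). One well held 42.3% of the Csn2 reads, and without the highest wells its log2 ratio went from -9.08 to -8.36. Whey acidic protein (Wap), named after its values were seen, had no read on either side. Plin2, a lipid droplet coat, was on in 32 secretory and 5 hormone-sensing cells. Among lipid synthesis genes as a list, 6 of 17 were higher in hormone-sensing and 8 in secretory cells. The stearoyl-CoA desaturase Scd1 was on in 31 secretory and 7 hormone-sensing cells, at 1059.9 against 59.7 CPM, and the sterol regulator Srebf1 at 192 against 72.04 CPM, a log2 ratio of -1.40 with a spike-in value of -0.22.

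Within the secretory cells Kit and Lalba were on together in 31 cells, Kit alone in 12, Lalba alone in 9 and neither in 1. Of the 20 cells with Elf5 on, 19 had Lalba on, against 21 of the other 33. Lalba and Btn1a1 were on together in 38 cells. Of the 15 cells with Csn1s1 on, 14 had Lalba on, and 4 of the 6 with Csn2 on had Csn1s1 on. All 8 cells with Aldh1a3 on had Kit on, as had 35 of the other 45 (77.8%). Lalba was on in 12 of the 15 secretory cells with Prlr on (80%) and in 28 of the other 38 (73.7%). Within the hormone-sensing cells, Esr1 was on in 14 of the 17 cells with Pgr on and in 21 of the other 25. Wnt4 was on in 9 of the 17 and in 13 of the other 25. Ly6a was on in 16 of the 17 and in 18 of the other 25. The RANK ligand gene Tnfsf11 had no read on either side. These pairs share cells and depth. Kit, Lalba, Elf5, Btn1a1, Prlr, Esr1, Pgr and Ly6a are rule genes, so their joint counts are partly set by the choice of cells and only describe it.

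Downstream of the prolactin receptor, 2 of 11 measured Jak2-Stat5 pathway members were at least 2-fold higher in hormone-sensing and 3 in secretory cells, with a median log2 ratio of -0.13, which was 1.03 with spike-in reads as the total. The phosphatase gene Ptpn1 was at 448 CPM in hormone-sensing and 103.4 CPM in secretory cells, on in 30 and 12 cells, 4.33-fold (4.16 to 4.51). Stat3 went the other way, at 428 against 1039 CPM, on in 36 and 47 cells. Its ratio was -1.28 on the log2 scale and -0.08 with spike-in reads as the total, and it overlaps Stat5a. The insulin receptor substrate Irs2 was at 67.1 against 307 CPM. Irs2 had a log2 ratio of -2.18 and a spike-in value of -0.99. Cish, a feedback inhibitor induced by Stat5, was at 245 and 165 CPM, under 2-fold apart, with a spike-in value of 1.76. Stat5a itself, named after its values were seen, was at 32.6 and 53.3 CPM.

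Among the paracrine signals, 4 of 11 Wnt and RANK pathway members were higher in hormone-sensing and 4 in secretory cells. Beside Wnt4, the ligand Wnt5a was on in 10 hormone-sensing and 2 secretory cells, at 86.8 against 4.07 CPM, and Wnt7b in 13 and 1, at 97.1 against 13.5 CPM. Without the highest well of each side the Wnt7b log2 ratio went from 2.76 to 6.33 and that of Wnt5a from 4.11 to 4.98. The co-receptor Lrp6 was at 188 and 175 CPM, with a spike-in value of 1.30. The gene of the receptor RANK, Tnfrsf11a, named after its values were seen, was on in 4 secretory and 0 hormone-sensing cells. One secretory well held 99.2% of the secretory Wnt7b reads.

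In the EGF receptor family, 3 of 8 measured genes were higher on each side. The receptor gene Erbb4 was on in 7 secretory and 0 hormone-sensing cells, at 67.04 against 0.534 CPM, 125.4-fold (77.1 to 219.9). Egfr, named after its values were seen, was on in 8 secretory and 0 hormone-sensing cells. Erbb3 was at 172 CPM in hormone-sensing and 116.8 CPM in secretory cells, and the ligand Hbegf at 477 and 767 CPM, both under 2-fold. With spike-in reads as the total Erbb3 had a log2 ratio of 1.74. The ligand Epgn was on in 6 and 2 cells, with 54.8% of its hormone-sensing reads in 1 well and a log2 ratio of 2.17, or 2.96 without the highest wells. The ligand gene Areg thus lay on the hormone-sensing side by the rule, and more cells had Erbb4 or Egfr on among the secretory cells.

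Notch pathway genes were found on both sides. The ligand Jag1 ran through 0, 14.03 and 2012 CPM in hormone-sensing cells, was on in 15 of 42 (35.7%, 21.6 to 51.97%) and 0 of 53, and was 89.4-fold (66.9 to 122.2) higher there. The target Hey1 ran through 0, 10.9 and 2392 CPM in secretory cells, was on in 23 of 53 (43.4%, 29.8 to 57.7%) and 0 of 42, and was 1659-fold (762 to 4521) higher. The receptor Notch1 was on in 23 secretory and 6 hormone-sensing cells, at 218 against 39.7 CPM, and Notch2 at 124.7 against 51.03 CPM, a log2 ratio of -1.27 with a spike-in value of -0.09. Another target, Hes1, was on in 17 hormone-sensing and 5 secretory cells, 3.15-fold (2.92 to 3.40), and the receptor Notch3 was at 49.9 and 49.1 CPM, with a spike-in value of 1.2. Of the 7 measured members, 2 were higher in hormone-sensing and 4 in secretory cells. The list median of -1.27 became 0.55 with spike-in reads as the total and 0.00497 within plate columns 1 to 12.

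Of 21 measured luminal transcription factors, 3 were at least 2-fold higher in hormone-sensing and 8 in secretory cells. Cebpb, a factor needed for alveolar cells, ran through 0, 308 and 1965 CPM in secretory cells and 0, 4.41 and 148 CPM in hormone-sensing cells. Cells with it on numbered 42 and 2, 19.4-fold (18.02 to 20.9). Cebpd was on in 33 and 6 cells, 16.3-fold (15.4 to 17.4), and Nfib in 47 and 28, 3.73-fold (3.63 to 3.82), a log2 ratio of -1.89 with a spike-in value of -0.70. Gata3, needed for luminal identity, was at 189 CPM in hormone-sensing cells with 49.1% of the reads in 1 well, on in 11 cells, and at 165 CPM in secretory cells, on in 25. Runx1 was at 459.8 and 501 CPM. The spike-in values of Gata3 and Runx1 were 1.39 and 1.07.

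Luminal keratins and junction genes were detected on both sides. Of 15 measured, 7 were at least 2-fold higher in hormone-sensing cells and 1 in secretory cells. Krt8 was at 6821 against 2707 CPM and Krt18, its filament partner, at 7986 against 4899 CPM. Krt19 was on in 41 hormone-sensing and 35 secretory cells, at 4451 against 1259.9 CPM, 3.53-fold (3.49 to 3.57), and the claudin gene Cldn4 in 42 and 38, 5.24-fold (5.17 to 5.31). Epcam was at 2402 and 2131 CPM. Krt18 and Epcam had spike-in values of 1.90 and 1.37. Krt7 and Cldn10, named after their values were seen, were on in 37 and 6 and in 32 and 1 cells.

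Among surface molecules used in sorting, 7 of 15 were higher in hormone-sensing and 6 in secretory cells. Cd24a, 1 of the 2 molecules that set the gate shared by both sides, was at 2040.4 CPM in hormone-sensing and 694 CPM in secretory cells, 2.94-fold (2.89 to 2.99). Ly6d was on in 40 and 22 cells, 8.32-fold (8.16 to 8.48), and Cd9 was at 2110.3 and 1302 CPM, with a spike-in value of 1.89. Ly6a, Ly6d and Ly6e belong to a family of close copies, so reads may be shared between members.

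Defence genes were mostly on the secretory side: of 15 measured, 10 were at least 2-fold higher there and 1 in hormone-sensing cells, with a median log2 ratio of -4.85, or -5.46 without each gene's highest wells. Beside Lcn2, Trf, Cp, Cd14 and Lbp described above, lactoferrin (Ltf), the chemokine genes Cxcl1 and Cxcl2 and the complement gene C3, named after their values were seen, were on in 25, 36, 25 and 14 secretory cells and in 1, 7, 0 and 0 hormone-sensing cells. The MHC class I genes H2-K1, at 1366 and 1327 CPM, H2-D1, at 2125 and 1498 CPM, and B2m, at 2672 and 3555 CPM, were under 2-fold apart when scaled to gene reads, as was Ly6e. Their spike-in values were 1.24 for H2-K1, 1.70 for H2-D1, 0.79 for B2m and 1.51 for Ly6e, so all but B2m passed 2-fold toward hormone-sensing cells under that total. H2-K1 and H2-D1 are near copies. The 1 measured MHC class II gene, H2-DMa, was on in 5 hormone-sensing cells and had no read in secretory cells, at least 321-fold higher in the former.

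Igf1r, the receptor for insulin-like growth factors, was on in 27 secretory cells and 1 hormone-sensing cell, at 163 against 6.85 CPM, while the insulin receptor Insr was on in 4 and 9, at 17.9 against 58.1 CPM, and Igf2r in 2 and 7. Without the highest wells the Igf1r log2 ratio went from -4.39 to -5.38 and that of Insr from 1.65 to 2.39. Tgfb3 was on in 22 secretory and 2 hormone-sensing cells, at 212 against 18.1 CPM, with log2 ratios of -3.48 and, without the highest wells, -5.15. Its receptor Tgfbr2 was on in 28 hormone-sensing and 16 secretory cells. The median of the BMP and TGF-beta list was -1.45, but 0.08 with spike-in reads as the total. Of 13 transport genes, 3 were higher in hormone-sensing and 8 in secretory cells. The water channel Aqp5 was on in 27 hormone-sensing and 23 secretory cells, 3.43-fold (3.33 to 3.54) higher in the former. The nucleoside transporter Slc28a3 was on in 24 secretory and 0 hormone-sensing cells, with 46.4% of its reads in 1 well. Its log2 ratio was -9.33, or -8.56 without the highest well of each side. The glucocorticoid receptor Nr3c1 was on in 13 secretory cells and 1 hormone-sensing cell, at 99.9 against 9.25 CPM, with log2 ratios of -3.30 and -4.30 without the highest wells.

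The immediate early genes Fos, at 2279.7 and 2585 CPM, Egr1, at 3609 and 2176 CPM, and Klf6, at 5276 and 3509 CPM, were under 2-fold apart when scaled to gene reads, with spike-in values of 1.02, 1.93 and 1.79. Ier3 was on in 49 secretory and 21 hormone-sensing cells, 8.32-fold (8.13 to 8.51) higher in the former. The list as a whole had 1 of 19 genes higher in hormone-sensing and 4 in secretory cells. Of 14 glycolysis genes, 1 was higher in hormone-sensing and 4 in secretory cells. Lactate dehydrogenase A (Ldha) was on in 49 secretory and 28 hormone-sensing cells, 3.38-fold (3.32 to 3.45) higher in the former, with a log2 ratio of -1.76 and a spike-in value of -0.56, under 2-fold. No gene of G2 and M phase reached 20 CPM, and the 15 together summed to 45.02 and 14.8 CPM, with no cell having 2 or more of them on. Of 7 measured S phase genes, 1 was higher in hormone-sensing and 3 in secretory cells. Pcna, the replication clamp, was on in 26 secretory and 10 hormone-sensing cells, 3.52-fold (3.36 to 3.68) higher in the former, with a log2 ratio of -1.80 and a spike-in value of -0.61, also under 2-fold.

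**Figure D4:**
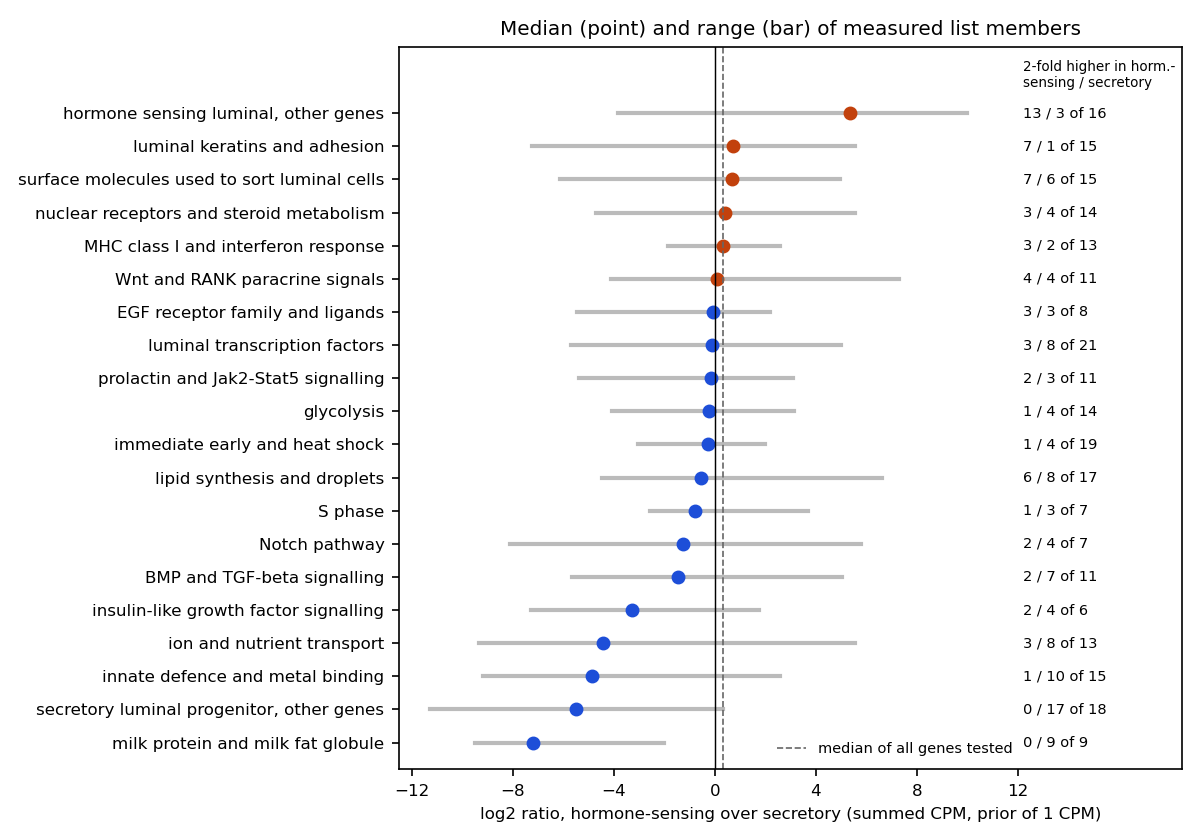
Median (point) and range (bar) of the log2 ratio of hormone-sensing over secretory cells for the measured members of 20 gene lists, with the numbers at least 2-fold higher in hormone-sensing and in secretory cells at the right and the dashed line at the median of all genes tested. The milk list lies furthest toward the secretory side, with a median of -7.19, and the hormone-sensing list furthest the other way, with 5.37. The Wnt and RANK, MHC class I, prolactin, EGF receptor, transcription factor, immediate early, lipid, glycolysis, S phase, Notch and BMP medians change sign under another scaling.

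The leading genes were then read in the other gates, whose cells took no part in the rule. In the basal gate, Lcn2 was at 2342 CPM and on in 82 of 100 cells, Igfbp5 at 4574 CPM and on in 84, and Cst3 at 1210.0 CPM and on in 88 of the 100. These 3 genes were thus on in most cells of the basal gate as well as of the secretory side. Spp1 was on in 4, Atp6v1b1 in 3 and Plb1 in 0 of the 100 basal cells. On the hormone-sensing side, Ptn was on in 42 basal and 79 embryonic cells and Slc7a2 in 30 and 6, while Gpx3 was on in 3 and 3, Tspan1 in 3 and 1 and Foxa1 in 2 and 0. The embryonic counts include 3 wells that themselves met the hormone-sensing rule, where Gpx3 was at 366 CPM and Esr1 at 401 CPM. The basal counts include 8 wells that met it. Gpx3 was at 157.879 CPM in those 8 and 0.192551 CPM in the 90 basal wells that met neither rule. Tspan1 was at 266.733 and 0.106973 CPM, and Ptn at 4042.92 and 203.248 CPM. Foxa1 was not split in this way. Wnt4 was on in 47 embryonic cells and 4 basal cells. Esr1 was on in 33 embryonic cells, at 110.1 CPM against 445 CPM in hormone-sensing cells. Jag1 was on in 40 basal and 20 embryonic cells.

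**Figure D5:**
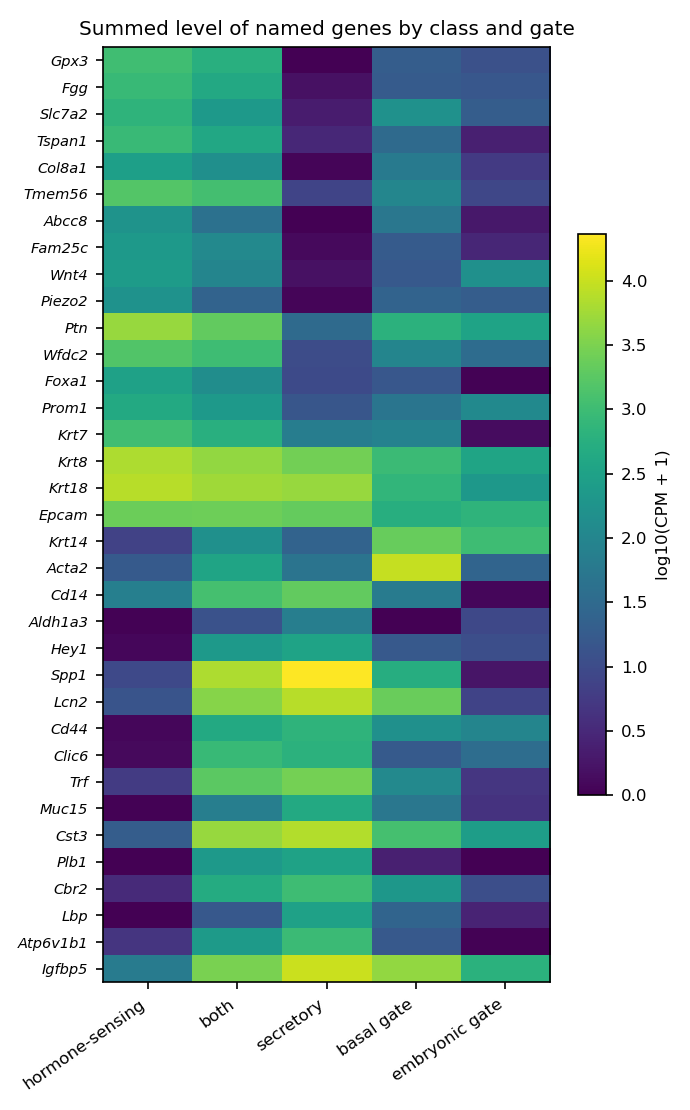
Summed level (log10 of CPM + 1, colour) of named genes in hormone-sensing cells, cells with both rule sets on, secretory cells and the kept cells of the basal and embryonic gates. Spp1 is at 23089.7 CPM in secretory cells and 523 CPM in the basal gate, where the 2 wells that met the secretory rule are at 31414.8 CPM and the 90 wells that met neither at 80.7 CPM, while Lcn2 and Igfbp5 are also high in the basal gate, and Gpx3 and Tspan1 are highest in the hormone-sensing column.

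A separate well of 50 luminal cells gave levels between those of the 2 sides for 11 of the 12 hormone-sensing and 11 of the 12 secretory leading genes. These genes were picked for their large ratios and a luminal well can hold both kinds of cell, so the counts test nothing. That well was made from cells not used above, and its Wfdc2 level, at 3449.57 CPM, was the exception on the hormone-sensing side. On the secretory side the exception was Spp1, at 29771.8 CPM.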

How the data were processed

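The authors deposited whole-number read counts for 49585 genes and 92 spike-ins in 384 wells. RNA of sorted cells was primed with oligo-dT, amplified for 24 cycles by Smart-seq2 with changes, and turned into Nextera XT libraries, per the labels' protocols. Tools named are cutadapt 1.13, STAR 2.5.2b and HTSeq 0.6.0, and the build is GRCm38, per the submitters' processing notes. Which annotation and strand setting were used for counting is not given in the sources used here. Symbols and coordinates were matched by identifier, 43749 in full and 5577 without the version, and 259 were not matched.

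Wells were grouped by their labels: 13 single luminal wells, 18 of the basal and 14 of the embryonic gate were left out for depth, gene number or mitochondrial share. One well whose title names luminal cells and whose sort label names the embryonic gate was left out.

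Each gene's reads were summed over a side and scaled to its gene reads without spike-ins. Genes at 20 CPM or more on either side were compared, and those at least 2-fold apart counted. No test was made, since the gate is 1 sample. A fold against a side with 0 reads takes 3 reads there. The members, the rule and the lists were chosen with earlier results of these data known.

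Named genes were those with 50 CPM or more and on in at least 50% of the higher side, with 2-fold in the mean of per-cell CPM: the 12 with the largest ratio each way, the 8 with the largest difference in share, up to 4 of each list by level, list members against the median where 3 or fewer, the rule genes and a fixed set. Spike-in, mitochondrial and ribosomal genes and unnamed gene models were left out. The step was also run on simulated counts with known changes and the same relative spread for every gene. That run does not show how many of the 2-fold genes above differ by sampling alone. Python 3.11.15, pandas 2.3.3, numpy 2.4.6, scipy 1.17.1, matplotlib 3.10.9 and, for TMM factors only, edgeR 4.0.16 in R 4.3.3 were used. The alternatives changed the scaling, filters, prior, rule, depth, part of the plate and single wells.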

Additional observations from a re-analysis of the deposited data

Results flagged for a closer look

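The rule met wells outside the luminal gate. In the basal gate 8 of 100 kept wells (8%, exact interval 3.52 to 15.2%) met the hormone-sensing rule. They had 2 to 10 of the 12 hormone-sensing leading genes on (median 8), and all 12 of those genes were higher there than in the other 90 basal wells. Of these 8, 6 had Krt8 at 3495 CPM or more and Acta2 at 43.2 CPM or less, while 2 had Acta2 at 14246 and 3972 CPM. Another 2 of the 100 (2%, 0.243 to 7.04%) met the secretory rule, with 8 and 3 secretory leading genes on and Acta2 at 0 and 9667 CPM.

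In the embryonic gate 3 kept wells (2.44%, 0.506 to 6.96%) met the hormone-sensing rule and 0 the secretory rule, which allows a share of up to 2.44% by the limit of 3 counts and 2.95% by the exact interval. The 3 wells lay side by side in plate row K, columns 15 to 17, and had 11, 7 and 1 hormone-sensing leading genes on.

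The well whose labels name different gates had Csn3 at 15939 CPM. It met the secretory rule with all 6 of its genes on, had all 12 secretory and 0 hormone-sensing leading genes on, and held 774060 reads. The cause of these 4 results was not tested.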

How the results depend on the processing

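With spike-in reads as the total, 5663 genes were at least 2-fold higher in hormone-sensing and 536 in secretory cells, and without a minimum level 4750 and 3132. The rule of 3 or more own genes and none of the other set left 22 and 31 cells. The other counts of genes and cells stayed within 1.5 times. A tally over 20 alternatives took 95 results, which were the named genes that were 2-fold apart and both counts of 2-fold genes. Of their 1807 values, 1798 kept their direction and 1759 stayed 2-fold apart, and 77 results did so in every one. Both counts could not change sign, and the named genes were not followed without a minimum level. The named genes include the rule genes and the leading genes, chosen by or from these same cells, so the tally is partly set in advance and tests nothing. Of 180 values of the 9 list medians that were at least 2-fold apart, 175 kept direction. Smaller list medians were not counted here, and several of them changed sign under another scaling.

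The reversed values were the following, on the log2 scale. With spike-in reads as the total, the Notch median was 0.55, the BMP and TGF-beta median 0.0829 and Tgfbr1 0.0829. Krt14 was at 0.0140 with on at 50 CPM, 0.0898 in rows I to P, 0.0506 in columns 1 to 12 and 1.34 without cells with 2 or more basal genes on. Acta2 was at 0.38 in rows I to P and 0.82 in columns 13 to 24. Mcm4 was at 2.05 in rows A to H, Ncoa1 at 0.12 in columns 13 to 24, the Notch median at 0.00497 in columns 1 to 12, and the BMP and TGF-beta median at 0.0533 in rows I to P and 0.28 in columns 13 to 24. Fewer cells entered each section of the plate, and the cause of the reversed values was not tested. The median of all genes was -0.05 with median-of-ratios, -0.07 with TMM and 1.64 with spike-in scaling.

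No paired analysis was possible because the labels give no replicate numbers and both sides come from 1 gate. Depth limits the shares: at 50000 reads a gene on at 100 CPM has 5 reads, so a gene that is not on is not absent. The sides differ in reads, genes and gene reads per spike-in read, and a difference in RNA content cannot be told apart from one in scaling.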
